A study of Mus musculus with 4 samples.

Results

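Respiratory complex I is described here through every gene whose symbol begins with Nduf, which are encoded in the nucleus, or with mt-Nd, which are encoded by mitochondrial DNA. The rule found 54 of 32286 features in the deposited tables, 47 Nduf and 7 mt-Nd, and it reads symbols and no measured value, though it was set with earlier results of these data known. All 54 were detected, and in the 5651 cells kept they held 925327 Nduf and 1325158 mt-Nd UMIs. A UMI (unique molecular identifier) is the tag by which each RNA molecule was counted once.

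Cells came from skeletal muscle of a DMD mouse model, in which Duchenne muscular dystrophy is caused by loss of dystrophin. Mice had received vehicle or LNP-CRISPR, lipid nanoparticles carrying a gene-editing system, and the series title asks which muscle cells those particles reach. Cells were taken as a bulk preparation or through a satellite cell isolation kit, so there were 4 groups with 1 library each: vehicle and LNP-CRISPR in bulk, and vehicle and LNP-CRISPR with the kit. Strain, age, dose, target and time after treatment are not given in the sources used here, nor is the number of animals behind a library. With 1 library per group no difference below has a replicate check, no test was run, and all intervals are 95% intervals that cover counting error only.

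Complex I takes electrons from NADH, passes them to ubiquinone and pumps protons across the inner mitochondrial membrane. Its catalytic core is split between 2 genomes: nuclear core subunits carry the flavin and iron-sulphur clusters, and the mt-Nd proteins form the proton-pumping membrane arm. Accessory subunits, all nuclear, surround the core, and assembly factors such as the Ndufaf proteins build the complex without staying in it. Skeletal muscle is rich in this complex, and its parts must be supplied from both genomes.

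By role the 47 Nduf genes were 7 nuclear core subunits, 30 genes counted as accessory, 8 Ndufaf assembly factors, and Ndufa4 with its paralogue Ndufa4l2. Ndufa4 carries a complex I name but its protein is now counted with complex IV. The accessory genes held 730896 UMIs, the nuclear core 98620, the assembly factors 30133 and the Ndufa4 pair 65678. The 5 Nduf genes with the most UMIs were Ndufa4 (59647), Ndufa13 (43241), Ndufa2 (41652), Ndufb1-ps (40674) and Ndufb9 (37804). Ndufb1-ps is annotated as a bidirectional promoter lncRNA, so its reads are given under that symbol and not as Ndufb1. By its symbol it is still counted among the 30 accessory genes and in their UMIs. In a 3′ tag assay a gene's UMI count does not grow with its length, and priming differs between transcripts, so counts are compared here between cells and not between genes.

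The 7 mitochondrial members lie on chromosome M of GRCm38. mt-Nd1 spans 2751 to 3707, mt-Nd2 spans 3914 to 4951, mt-Nd3 spans 9459 to 9806, mt-Nd4l spans 9877 to 10173, mt-Nd4 spans 10167 to 11544 and mt-Nd5 spans 11742 to 13565, all on the plus strand. mt-Nd6 spans 13552 to 14070 on the minus strand. mt-Nd4l and mt-Nd4 share 7 bases, and mt-Nd5 and mt-Nd6 share 14 bases on opposite strands. The counts come from the 3′ ends of RNAs, but the annotated transcripts stop at the stop codon. Where the counted RNAs end was not examined. mt-Nd4l ends inside mt-Nd4, so its annotated end need not be the end of an RNA of its own. The last 30 bases of each GENCODE M21 transcript are shown 5′ to 3′, with the stop codon in capitals:
mt-Nd1: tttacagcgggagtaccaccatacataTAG
mt-Nd2: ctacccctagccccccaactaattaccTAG
mt-Nd3: acacaaaaaggattagaatgaacagagTAA
mt-Nd4l: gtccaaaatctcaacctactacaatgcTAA
mt-Nd4: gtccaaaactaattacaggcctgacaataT
mt-Nd5: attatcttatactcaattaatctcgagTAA
mt-Nd6: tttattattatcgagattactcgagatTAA
The 1378 bases of mt-Nd4 are not a multiple of 3, and the transcript ends on 1 base of an unfinished stop codon, which polyadenylation completes. mt-Nd3 had the most A among these stretches, 17 of 30 bases, against 8 of 30 in mt-Nd2. Over all kept cells mt-Nd1 gave 25.7% of mt-Nd UMIs, mt-Nd4 gave 25.3%, mt-Nd2 gave 25.1%, mt-Nd3 gave 11.4%, mt-Nd5 gave 7.55%, mt-Nd4l gave 3.99% and mt-Nd6 gave 0.913%. mt-Nd6 is the single member read from the opposite strand and was the least counted.

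Promoter windows from RefSeq (GRCm38.p6, 250 bases before to 50 after the gene start) were matched by symbol for 40 of the 47 Nduf genes. Short words known from binding sites of factors that act on respiratory genes were searched on both strands. AAGATGGC, a core of the YY1 site, stood in 8 of 40 Nduf windows (20%) and in 3.57% of the windows of 17492 protein-coding genes. GCATGCGC, a core of the NRF1 site, stood in 5 of 40 (12.5%), against 3.94% of the protein-coding genes. CCGGAAG, an ETS core, stood in 6 of 40 (15%) against 12.95%, and AAGGTCA, an estrogen-related receptor core, in 3 of 40 (7.5%) against 4.73%. A match describes letters in a window and not a bound site. The window of Ndufc1, the accessory gene highest in fibre-like cells, is shown with its YY1 word in capitals, and that of Ndufaf4, the assembly factor highest in the mitotic cluster, with its NRF1 words, which overlap on both strands at the first position. The first is on the minus strand of chromosome 3 (51408906 to 51409205), the second on the plus strand of chromosome 4 (24897833 to 24898132):
Ndufc1: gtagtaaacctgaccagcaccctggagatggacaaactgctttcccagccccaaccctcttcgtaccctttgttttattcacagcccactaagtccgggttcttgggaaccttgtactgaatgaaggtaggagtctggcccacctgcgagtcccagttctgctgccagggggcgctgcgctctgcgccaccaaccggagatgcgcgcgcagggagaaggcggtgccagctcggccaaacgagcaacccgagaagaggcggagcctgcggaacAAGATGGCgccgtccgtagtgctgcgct
Ndufaf4: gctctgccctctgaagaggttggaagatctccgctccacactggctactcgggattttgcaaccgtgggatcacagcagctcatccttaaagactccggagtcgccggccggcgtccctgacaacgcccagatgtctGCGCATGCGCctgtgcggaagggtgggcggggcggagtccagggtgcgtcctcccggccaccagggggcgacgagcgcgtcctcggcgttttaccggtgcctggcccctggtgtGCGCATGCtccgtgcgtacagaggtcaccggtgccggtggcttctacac

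The libraries differed in depth and make-up. Kept cells numbered 1149 to 1899 per library, with median depths of 22270 and 16042 UMIs in bulk (vehicle, LNP-CRISPR) and 8627 and 10312 UMIs with the kit. Cells were clustered with all 54 members and every other mitochondrially encoded gene left out, so the counts of the members did not enter the clustering. Nuclear genes of the other respiratory complexes stayed in, and the cells were chosen with a limit on mitochondrial UMIs. Clusters were named "-like" from marker genes. Myogenic-like cells had Pax7 and Calcr among the leading genes of their main cluster, which held 474 of their 724 cells. They were 23.01% and 18.4% of the 2 kit libraries and 2.59% and 1.83% of the bulk ones. The kit libraries labelled as satellite cells thus also held fibre-like, glial-like and pericyte/smooth muscle-like cells. The pericyte/smooth muscle-like class was named from 1 list of pericyte and smooth muscle markers, which does not separate the 2 cell types. Its main cluster, with 497 of its 591 cells, was led mostly by smooth muscle genes such as Myh11, Lmod1, Mylk and Cnn1, beside the pericyte marker Rgs5. A level is the UMI count of a gene in all cells of a class together, per 1000000 UMIs of nuclear-encoded genes there (CPM). RNA in empty droplets was not analysed here.

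Nuclear complex I RNA was highest in fibre-like cells, defined by contractile genes such as Myh4 and Pvalb. Their summed Nduf level was 26084 CPM in vehicle kit and 25127 CPM in LNP-CRISPR kit, and no other class or cluster came above 13461 CPM (pooled over libraries). Cluster 25 had that level; its leading genes were the embryonic myosin Myh3 and the fusion gene Mymx. Next came cluster 5, unnamed and with a median of only 741.5 UMIs per cell, at 10736 CPM (10467 to 11011), and cluster 12, led by mitotic genes such as Cdc20 and Cenpf, at 10649 CPM (10592 to 10706), whose counting intervals overlapped. They were followed by cluster 7, led by histone genes, at 10023 CPM, by myogenic-like cells at 9326 CPM and pericyte/smooth muscle-like cells at 9061 CPM. The last 2 changed places by the median cell, at 6659 CPM in myogenic-like and 8785 CPM in pericyte/smooth muscle-like cells. Deep cells weigh more in a pooled level. Myogenic-like cluster 14, with 169 cells, held 9069258 of the 17076934 nuclear-encoded UMIs of its class. The 2 kit libraries gave the same order for fibre-like over cycling over myogenic-like cells.

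The classes below these were closer together. Glial-like cells held 6506 CPM of Nduf RNA and dendritic-like cells 5860 CPM. Macrophage-like cells (4980 CPM), fibro-adipogenic progenitor-like (FAP-like) cells (4696 CPM), tenocyte-like cells (4682 CPM) and T/NK-like cells (4454 CPM) followed, and the counting intervals of FAP-like (4674 to 4718) and tenocyte-like cells (4625 to 4739) overlapped. Neutrophil-like cells, which rely mostly on glycolysis, were lowest at 2032 CPM, from 1070 UMIs in 197 cells.

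The mitochondrially encoded members followed a different order. Pericyte/smooth muscle-like cells had the highest summed mt-Nd level, 23482 CPM, and were highest in each of the 4 libraries among classes with at least 20 cells: 28842 CPM in vehicle bulk, 25749 CPM in LNP-CRISPR bulk, 23986 CPM in vehicle kit and 22671 CPM in LNP-CRISPR kit. Cluster 25 followed at 17400 CPM and glial-like cells at 13796 CPM. Fibre-like cells, first in Nduf RNA, came near the bottom in mt-Nd RNA with 1270 CPM in vehicle kit and 4532 CPM in LNP-CRISPR kit. Neutrophil-like cells were lowest in the pooled level, at 986 CPM. By the median barcode over all libraries fibre-like cells were lower, at 183 CPM against 748 CPM in neutrophil-like cells.

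**Figure D1:**
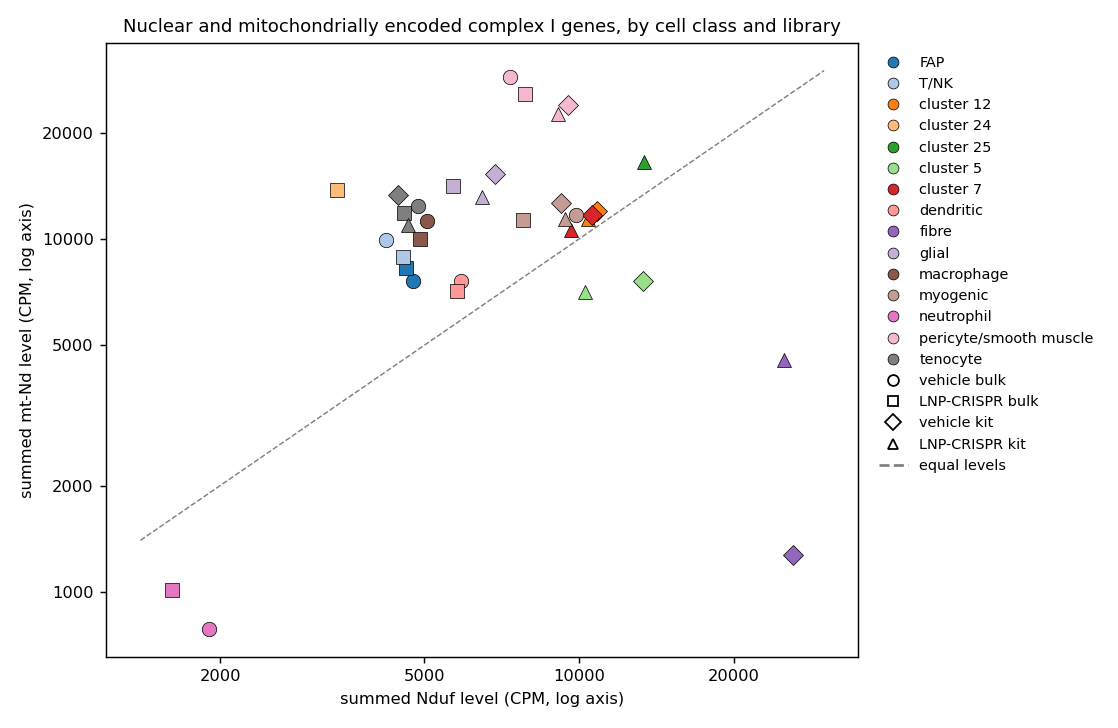
Summed Nduf level against summed mt-Nd level, both in CPM on log axes, for each cell class (colour) in each library (marker shape) with at least 20 cells; the dashed line marks equal levels. Fibre-like cells lie far right and low, at 26084 and 25127 CPM of Nduf RNA, and pericyte/smooth muscle-like cells lie at the top, at 22671 to 28842 CPM of mt-Nd RNA.

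The balance of the 2 genomes therefore ranged widely between classes. Pooled over libraries, mt-Nd UMIs per Nduf UMI were highest in cluster 24, an unnamed cluster of 50 cells led by Apod, at 3.17, followed by 2.59 in pericyte/smooth muscle-like cells, 2.57 in tenocyte-like, 2.12 in glial-like, 2.125 in macrophage-like and 2.08 in T/NK-like cells. The ratio was 1.68 in FAP-like cells, 1.27 in myogenic-like and 1.26 in dendritic-like cells, and 1.11 in both cycling clusters. It was 0.485 in neutrophil-like and 0.102 in fibre-like cells. Cluster 25, kept out of the fibre-like class by a naming rule added after the clusters were seen, was at 1.29.

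The ratios of 3 classes differed most with the limit of 20% mitochondrial UMIs per barcode. With no limit and the cells clustered anew, the pooled ratio was 0.228 in fibre-like, 1.74 in neutrophil-like and 3.86 in pericyte/smooth muscle-like cells. By library it was 0.0487 with the limit and 0.173 without it in fibre-like cells of vehicle kit, and 0.180 and 0.317 in those of LNP-CRISPR kit. The median fibre-like barcode had a ratio of 0.00467 in vehicle kit and 0.0119 in LNP-CRISPR kit. Pericyte/smooth muscle-like cells of vehicle kit were at 2.52 with the limit and 4.23 without it. Fibre-like cells were lowest in the pooled ratio among named classes with at least 20 cells, both with the limit and without it.

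Across 35 points of class and library the Spearman correlation of the 2 sums was 0.10, or 0.27 without the fibre-like points. The points share libraries and denominators, so this is a description only.

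Low mitochondrial RNA in fibre-like cells was not particular to complex I. Mitochondrial over nuclear UMIs in fibre-like cells were 0.114 for complex III, 0.319 for complex IV and 0.0757 for complex V, where myogenic-like cells had 1.34, 2.945 and 1.02. The nuclear parts of these complexes were at their highest in fibre-like cells, at 9378 CPM for complex III, 15600 CPM for complex IV and 23297 CPM for complex V, as was glycolysis at 34718 CPM. The muscle isoforms Cox6a2, Cox7a1 and Cox8b of complex IV summed to 4817 CPM there and to 233 CPM or less in every other class and cluster. These nuclear genes were not left out of the clustering, and Cox8b and Cox6a2 were among the leading genes of fibre-like clusters.

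Fibre-like barcodes were shallow, with a median of 1627 UMIs, and 257 of 596 held no mt-Nd UMI. A median fibre-like barcode of vehicle kit held 42 Nduf UMIs and 1 mt-Nd UMI, and one of LNP-CRISPR kit held 36 and 1. Other shallow clusters lay on both sides. Glial-like cluster 13 (median 1061 UMIs) had 2.91 mt-Nd UMIs per Nduf UMI, with a median of 2.6 over its barcodes. Cluster 5 had 0.675, with a median of 0.125 and no mt-Nd UMI in 102 of 316 barcodes, and pericyte/smooth muscle-like cluster 19 (median 1045 UMIs) had 1.42, with a median of 0.4. The part of depth in the fibre-like balance was not tested. Without the limit of 20% mitochondrial UMIs the cells were clustered and named anew, and the myogenic-like class was a different set. In vehicle kit it then held 14242339 nuclear-encoded UMIs, against 6176977 with the limit, and all barcodes over the limit held 1136099 there. In the new classes 12 of 614 fibre-like barcodes were above the limit, against 214 of 778 pericyte/smooth muscle-like and 251 of 1229 myogenic-like ones. Few as they were, the fibre-like mt-Nd level without the limit was 4443 CPM in vehicle kit and 7751 CPM in LNP-CRISPR kit. Whether these barcodes are whole fibres, fragments or nuclei was not tested.

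Single members mostly had the same extremes as the Nduf sum. Of the 47 Nduf genes, 36 had their highest class level in fibre-like cells and 36 their lowest in neutrophil-like cells. The matching shares over all genes were not computed, so these counts and those by role below are a description and not a trait of Nduf genes. Among the 7 nuclear core genes 4 were highest in fibre-like cells and 3 in cluster 25; the latter included Ndufv1, the NADH-binding subunit, at 187 CPM, and Ndufs1 at 136.8 CPM. Ndufs3, a nuclear core subunit of the ubiquinone-side module, ran from 5.70 CPM in neutrophil-like cells (3 UMIs) to 395 CPM in fibre-like cells. Ndufv2, a further core subunit, ran from 15.2 to 671 CPM between the same classes. Of the 30 accessory genes 27 were highest in fibre-like cells.

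The accessory gene Ndufc1, whose window with the YY1 word is printed above, was at 1792 CPM in fibre-like cells. Its next highest level was 463 CPM in cluster 25, and it was 288 CPM in myogenic-like cells and 141 CPM in FAP-like cells. Ndufa5, an accessory subunit of the matrix arm, was at 921 CPM in fibre-like, 239 CPM in myogenic-like and 19.0 CPM in neutrophil-like cells. Ndufa13 departed from the common order, being higher in glial-like (638 CPM) and pericyte/smooth muscle-like (578 CPM) than in myogenic-like cells (372 CPM). Of the 5 genes with the most UMIs Ndufa2 varied least, 6.41-fold between its highest class (fibre-like) and its lowest (neutrophil-like).

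Assembly factors were lower and less tied to fibre-like cells. Of 8 Ndufaf genes 4 were highest in fibre-like cells, and their summed level there, 416 CPM, was close to that of cluster 12, 402 CPM, and of cluster 7, 391 CPM. Ndufaf4 reached 108 CPM in cluster 12 and Ndufaf2 reached 113 CPM in cluster 7. Ndufaf7 was highest in neutrophil-like cells at 34.2 CPM, but from 18 UMIs. Accessory RNA, by contrast, was 21520 CPM in fibre-like cells against 8206 CPM in cluster 12.

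**Figure D2:**
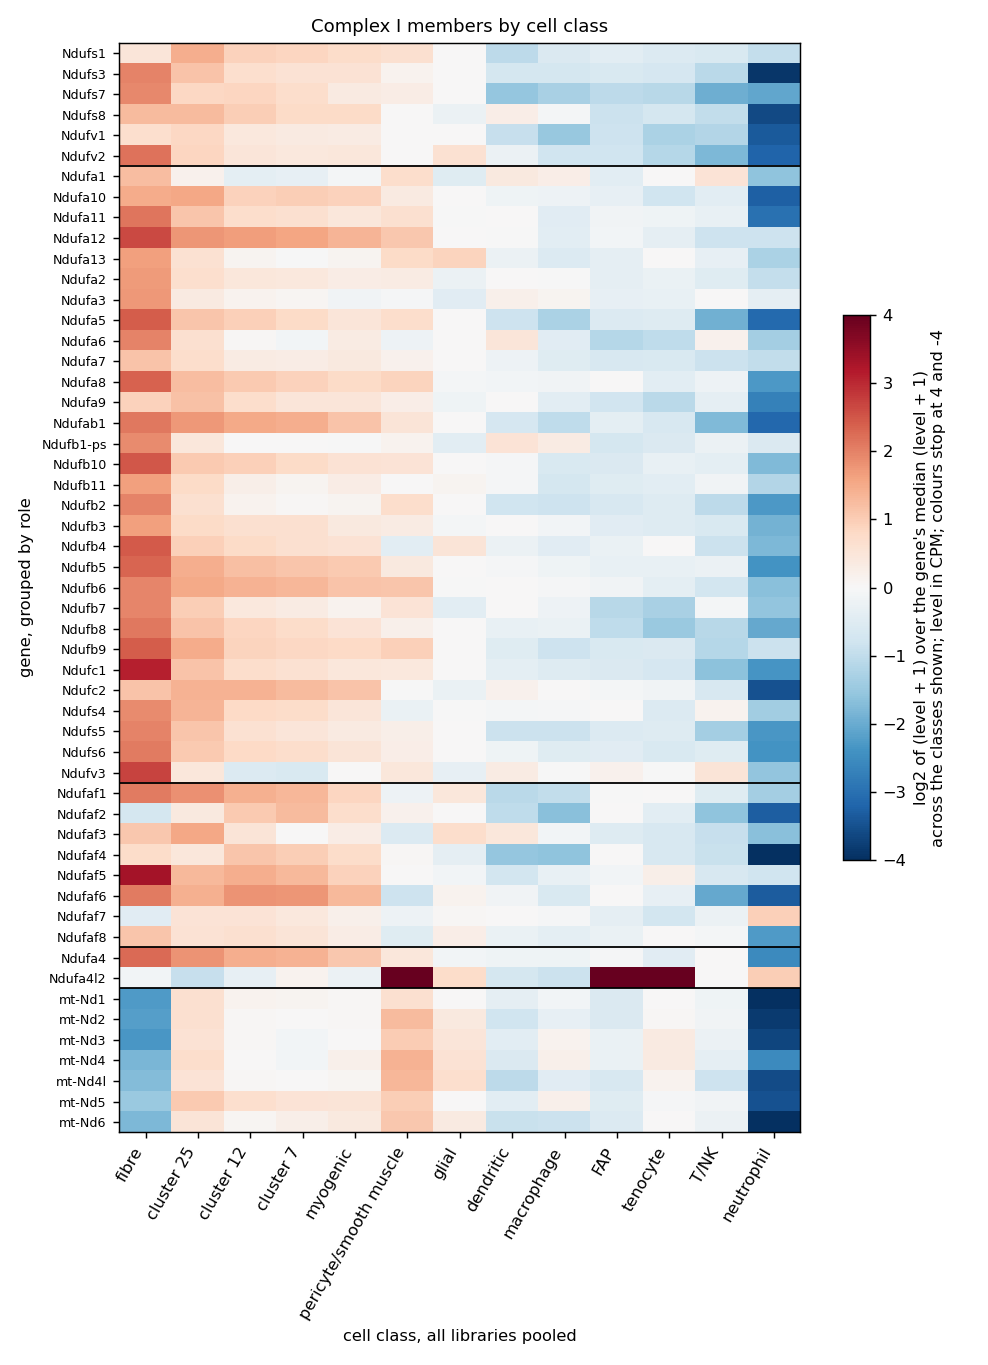
Each row is 1 member, grouped by role, and each column a cell class pooled over libraries; colour gives log2 of the level plus 1 over that gene's median across the classes shown. Most Nduf rows are highest in fibre-like cells, all mt-Nd rows are low there, and Ndufa4l2 stands out in pericyte/smooth muscle-like, tenocyte-like and FAP-like cells.

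Ndufa4l2, a paralogue of Ndufa4 known as a gene induced by low oxygen, was the member most restricted to a few classes. Its level in pericyte/smooth muscle-like cells was 322 CPM in vehicle bulk, 361 CPM in LNP-CRISPR bulk, 467 CPM in vehicle kit and 396 CPM in LNP-CRISPR kit. Tenocyte-like cells held 177, 159, 76.2 and 44.1 CPM in the same order, with 26 and 31 UMIs behind the kit values. FAP-like cells held 45.5 CPM in vehicle bulk and 31.15 CPM in LNP-CRISPR bulk. Pooled levels in all other named classes were 3.798 CPM or less. Among the unnamed clusters, cluster 24 held 16.3 CPM and cluster 5 held 8.92 CPM.

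Ndufa4 behaved like the other Nduf genes, from 1418 CPM in fibre-like cells and 1039 CPM in cluster 25 to 49.4 CPM in neutrophil-like cells. In pericyte/smooth muscle-like cells it was at 403 CPM and in tenocyte-like cells at 214 CPM, so the classes highest in Ndufa4l2 were not those highest in Ndufa4. Pericyte/smooth muscle-like cells had both the highest mt-Nd level and the highest Ndufa4l2 level of their library in all 4 libraries.

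**Figure D3:**
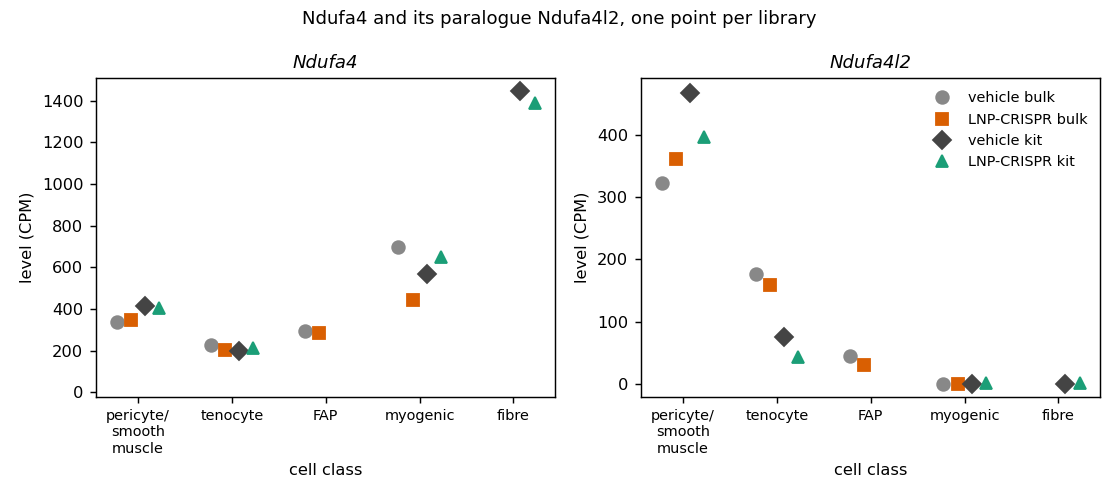
Levels of Ndufa4 (left) and Ndufa4l2 (right), in CPM, in 5 cell classes; each point is 1 library with at least 20 cells of the class, and the vertical scales differ. Ndufa4l2 lies at 322 to 467 CPM in pericyte/smooth muscle-like cells and near 0 in myogenic-like and fibre-like cells, where Ndufa4 is high.

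The genes whose level over the 35 points was most like the summed Nduf level were Uqcr11 of complex III (Spearman rho 0.99), Atp5k of complex V (0.98) and Mdh2, the mitochondrial malate dehydrogenase (0.98). Those most like the summed mt-Nd level were Aopep (0.93), Etv1 (0.88) and Kif13a (0.86). These were ranked among 9080 nuclear-encoded genes and share the libraries with the members.

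Among the myogenic-like clusters and the 2 cycling clusters, Nduf RNA differed more than mt-Nd RNA. Cluster 2, the Pax7-high myogenic-like cluster (Pax7 at 254 CPM), held 6557 CPM of Nduf RNA in vehicle kit and 6065 CPM in LNP-CRISPR kit. Cluster 14, in which the differentiation factor Myog was at 708 CPM against 34.1 CPM in cluster 2, held 11400 and 10930 CPM. Cluster 23, with Myog at 3409 CPM, held 11401 and 11376 CPM. The cycling clusters 7 and 12 held 10600 and 9656 CPM and 10862 and 10424 CPM. Both carried Myod1 RNA (211 CPM each) but were left unnamed because no class had enough enriched markers.

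Against cluster 2, summed Nduf RNA in cluster 14 was 1.74-fold (1.71 to 1.77) higher in vehicle kit and 1.80-fold (1.77 to 1.83) in LNP-CRISPR kit. Summed mt-Nd RNA was 1.302-fold (1.28 to 1.32) and 1.18-fold (1.17 to 1.2) higher. In cluster 7 the Nduf ratios were 1.62 and 1.59 and the mt-Nd ratios 1.13 and 1.09, and in cluster 12 they were 1.66 and 1.72 against 1.16 and 1.17. Cells of clusters 14, 7 and 12 were also deeper, with median depths of 56483, 71620 and 66673 UMIs against 12954 in cluster 2, and the part of depth in these ratios was not tested. Cluster 23, with a median of 22577 UMIs, had Nduf ratios of 1.74 and 1.88 and mt-Nd ratios of 1.67 and 1.69.

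Most single Nduf genes differed in the same direction. A ratio past 1.3 was used as the fold rule, for genes with at least 100 UMIs in both groups together. In cluster 14 over cluster 2, 37 of 42 Nduf genes were past it upward and 0 downward in vehicle kit, where the background over all genes was 33.1% upward and 32.8% downward. In LNP-CRISPR kit 42 of 46 were upward and 0 downward (31.7% and 34.6% of all genes). For cluster 7 the counts were 39 of 46 up and 2 down in vehicle kit (37.0% and 33.8%) and 37 up and 1 down in LNP-CRISPR kit (35.2% and 33.7%). For cluster 12 they were 40 of 46 up and 2 down (38.7% and 32.2%) and 40 up and 1 down (34.7% and 33.8%).

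The median log2 ratio of the Nduf genes lay between 0.71 and 0.87 in these 6 comparisons, and that of all genes between -0.04 and 0.09. Ndufab1, the mitochondrial acyl carrier protein, was among those furthest up, 2.82-fold and 2.70-fold in cluster 14 and 2.65-fold and 2.53-fold in cluster 7. Ndufa4 was also among them, 2.76-fold and 2.66-fold in cluster 14. Ndufv3, a small accessory subunit of the NADH module, was lower in cluster 7 (0.76 and 0.64) and cluster 12 (0.75 and 0.70), and Ndufa6 was lower in cluster 7 (0.68 and 0.78). The mitochondrial members differed among themselves: in cluster 7 mt-Nd1 was 1.35-fold and 1.25-fold and mt-Nd5 1.36-fold and 1.25-fold higher, while mt-Nd4 was at 0.83 and 0.84 and mt-Nd6 at 0.74 in both.

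The make-up of the mt-Nd pool differed between classes as well. mt-Nd5 was 9.69% of mt-Nd UMIs in cluster 12, 9.28% in cluster 7 and 8.66% in myogenic-like cells, but 5.19% in glial-like, 5.71% in tenocyte-like and 6.10% in pericyte/smooth muscle-like cells. mt-Nd1 was 32.1% in dendritic-like cells and 20.2% in pericyte/smooth muscle-like cells, where mt-Nd2 (28.9%) and mt-Nd4 (28.7%) were ahead. The neutrophil-like share of mt-Nd4, 44.3%, rested on 230 UMIs.

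LNP-CRISPR and vehicle libraries of the same isolation were compared in 8 classes and, by number, in clusters 7 and 12, each with at least 50 cells on both sides. Clusters 7 and 12 were chosen after the clusters were seen. The shallow cluster 5 also had enough kit cells (132 and 163) but was not among the pairs. Its Nduf level was 13307 CPM in vehicle kit and 10265 CPM in LNP-CRISPR kit, with medians over its barcodes of 11773 and 11725 CPM. In the 10 pairs compared, summed Nduf RNA pooled over each class or cluster differed little. In bulk the LNP-CRISPR over vehicle ratio was 0.966 (0.957 to 0.975) in FAP-like cells (4758 and 4596 CPM in vehicle and LNP-CRISPR), 0.982 in dendritic-like, 0.968 in macrophage-like and 0.940 in tenocyte-like cells. In the kit libraries it was 0.963 in fibre-like, 0.941 in glial-like, 0.955 in pericyte/smooth muscle-like cells, 0.960 in cluster 12 and 0.911 (0.902 to 0.920) in cluster 7. Myogenic-like cells alone were above 1, at 1.015 (1.005 to 1.026), from 9245 CPM in vehicle and 9387 CPM in LNP-CRISPR, and were below 1, at 0.984, with each cell weighted equally. By cluster, Nduf RNA was lower in LNP-CRISPR kit in clusters 2 and 14 and within counting error in cluster 23, with the values given above, and cluster 2 made up 228 of 323 cells in vehicle kit and 217 of 349 in LNP-CRISPR kit. FAP-like cells also pooled unlike clusters. In cluster 17, led by genes such as Efemp1 and Pi16, Nduf RNA went from 4326 CPM in vehicle bulk to 3346 CPM in LNP-CRISPR bulk (76 and 43 cells). Its mt-Nd UMIs per Nduf UMI were 1.85 and 2.855. The other FAP-like clusters held 4955 and 4950 CPM (cluster 3), 4133 and 3983 (cluster 8), 4394 and 4385 (cluster 9) and 5894 and 5622 (cluster 22). Cluster 9 had 169 and 72 cells.

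The ratio of summed mt-Nd RNA lay between 0.860 and 1.088 in 9 of the 10 pairs. FAP-like cells had 7624 CPM in vehicle bulk and 8295 CPM in LNP-CRISPR bulk, a ratio of 1.088 (1.080 to 1.096). Macrophage-like cells pooled as a class went the other way, from 11249 to 10001 CPM, a ratio of 0.889 (0.875 to 0.903). Within that class cluster 6, led by C1q genes, went from 12755 to 10863 CPM. Cluster 16, led by Ly6c2, went from 7216 to 7736 CPM, with 63 cells in each library. Glial-like cells of the kit libraries had the lowest ratio, 0.860 (0.846 to 0.874), from 15286 to 13146 CPM, and myogenic-like cells had 0.898 (0.890 to 0.906). Dendritic-like cells were at 0.936, tenocyte-like at 0.951, pericyte/smooth muscle-like at 0.945, cluster 12 at 0.952 and cluster 7 at 0.907. Weighting each cell equally turned the ratio in cluster 7 to 1.287 and in dendritic-like cells to 1.049, and a limit of 10% mitochondrial UMIs turned that in pericyte/smooth muscle-like cells to 1.051.

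Fibre-like cells were the exception, with 1270 CPM of mt-Nd RNA in vehicle kit and 4532 CPM in LNP-CRISPR kit, a ratio of 3.57 (3.37 to 3.78). All of the 7 mt-Nd genes were higher, from 2.87-fold for mt-Nd2 to 4.96-fold for mt-Nd4l, with mt-Nd6 resting on 16 and 49 UMIs. In this pair 25.1% of all genes were past 1.3-fold higher. Much of the difference lay in few barcodes. In all, 3 of 288 fibre-like barcodes of LNP-CRISPR kit held 3322 of its 4466 mt-Nd UMIs, 969 to 1252 each, where the fourth highest held 122. Those 3 barcodes had 28249 to 48311 UMIs and 10.2% to 13.1% mitochondrial UMIs, far above the fibre-like median depth. Without the 3 highest barcodes of each library the levels were 793 and 1288 CPM and the ratio 1.623. With each barcode weighted equally the ratio was 1.063, and with at most 10% mitochondrial UMIs it was 1.375.

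**Figure D4:**
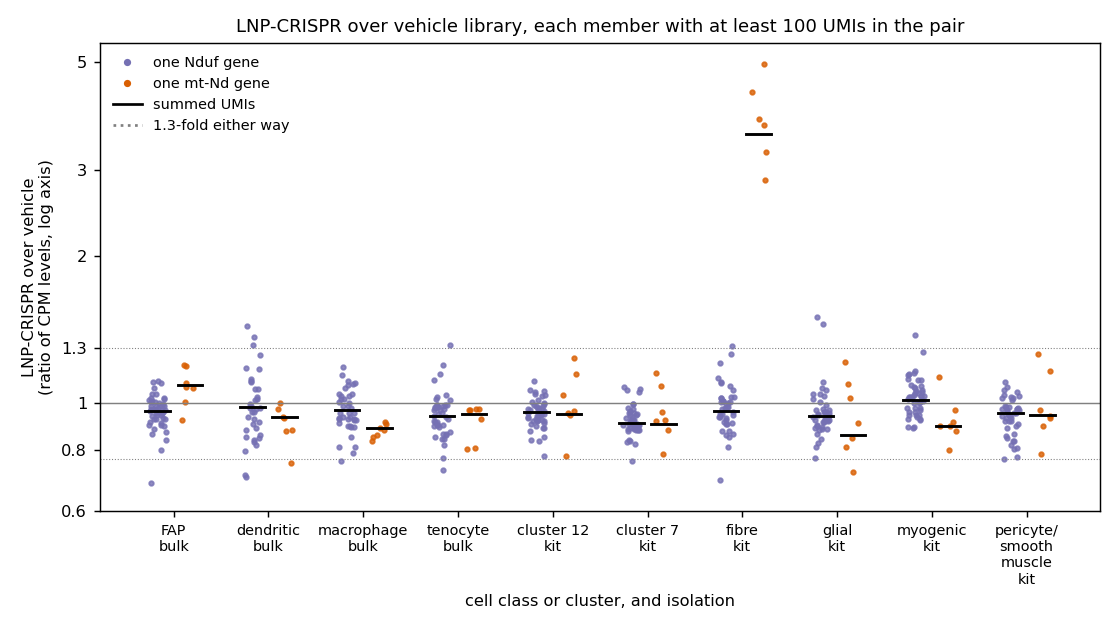
LNP-CRISPR over vehicle ratio of levels in CPM (log axis) in 10 pairs; each point is 1 Nduf or mt-Nd gene with at least 100 UMIs in the pair, black bars are the summed UMIs and dotted lines mark 1.3-fold either way. Nduf sums lie between 0.911 and 1.015, and the mt-Nd genes of fibre-like cells, at 2.87 to 4.96, lie apart from all others.

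Few single Nduf genes were past 1.3-fold between treatments. In FAP-like cells 0 of 47 were higher and 1 lower, where 3.75% of all genes were higher and 7.32% lower. In dendritic-like cells 3 of 36 were higher and 2 lower (11.6% and 13.2% of all genes). In macrophage-like cells 0 of 39 were higher and 1 lower (7.02% and 7.99%), and in tenocyte-like cells 1 of 42 was higher and 1 lower (9.41% and 10.4%). These shares lay at or below the background of their pair.

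In the kit libraries the counts were as low. Cluster 12 had 0 of 46 either way (6.04% and 6.29% of all genes higher and lower), and cluster 7 had 0 of 46 higher and 1 lower (5.88% and 5.43%). Fibre-like cells had 1 of 41 higher and 1 lower, beside 25.1% and 4.61% of all genes. Glial-like cells had 2 of 42 higher and 0 lower (7.77% and 4.86%), myogenic-like cells 1 of 46 higher and 0 lower (8.68% and 11.1%), and pericyte/smooth muscle-like cells 0 of 43 either way (7.73% and 12.1%). The median log2 ratio of the Nduf genes lay between -0.14 (cluster 7) and 0.04 (myogenic-like), and that of all genes between -0.05 and 0.02 except in fibre-like cells, where it was 0.12.

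The member furthest down was Ndufa4l2 in FAP-like cells, at 45.5 CPM in vehicle bulk and 31.15 CPM in LNP-CRISPR bulk, a ratio of 0.685 (0.612 to 0.765) from 1009 and 462 UMIs. In pericyte/smooth muscle-like cells of the kit libraries it was also lower, 467 against 396 CPM, while in the 27 pericyte/smooth muscle-like cells of each bulk library it was 322 against 361 CPM. The core gene Ndufs7, which carries an iron-sulphur cluster, was at 433 CPM in fibre-like cells of vehicle kit and 566 CPM in those of LNP-CRISPR kit, a ratio of 1.31 (1.16 to 1.47). Ndufa10 was higher in glial-like cells (1.46, 1.18 to 1.815) and fibre-like cells (1.26) and lower in dendritic-like cells (0.711, 0.515 to 0.975).

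Among assembly factors Ndufaf4 had ratios on both sides of 1. It was 1.504 (1.05 to 2.20) in glial-like cells from 40 and 129 UMIs, 1.27 (1.13 to 1.43) in myogenic-like and 1.32 (0.916 to 1.91) in tenocyte-like cells, but 0.801 (0.726 to 0.882) in FAP-like cells. Ndufaf7 was at 1.38 (1.09 to 1.77) in myogenic-like cells and 0.839 (0.693 to 1.014) in FAP-like cells. Ndufaf5 was lowest of all Nduf genes in fibre-like cells, 0.697 (0.510 to 0.946), from 125 and 67 UMIs. Other Nduf genes at the lower end were Ndufa12 in dendritic-like cells (0.705), Ndufa9 in tenocyte-like cells (0.730), Ndufa11 in macrophage-like cells (0.761) and Ndufa1 in cluster 7 (0.761). At the upper end Ndufs4, an accessory subunit whose loss causes Leigh syndrome, was at 1.44 (1.03 to 2.02) in dendritic-like cells and 0.774 in glial-like cells.

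The nuclear genes of complexes III, IV and V gave low counts between treatments as well. Outside the muscle isoforms of complex IV none was past 1.3-fold in 9 of the 10 pairs, and in fibre-like cells 1 of 9 complex III genes, 1 of 9 complex IV genes and 0 of 15 complex V genes were higher (25.1% of all genes). Of the muscle isoforms with enough UMIs 1 of 1 was lower in cluster 7 (5.43%) and 1 of 2 in myogenic-like cells (11.1%). Median log2 ratios were -0.16 to 0.05 for complex III, -0.14 to 0.08 for complex IV and -0.13 to 0.06 for complex V. Complex II, the succinate dehydrogenase, had 2 of 4 genes higher in dendritic-like cells (11.6% of all genes) and 1 of 4 in fibre-like cells (25.1%). It had 1 of 4 lower in cluster 12 (6.29%) and in pericyte/smooth muscle-like cells (12.1%). Of the 3 mitochondrially encoded complex IV genes 2 were lower in myogenic-like cells (11.1%).

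Of the mitochondrially encoded mRNAs 12 of 12 with enough UMIs were past 1.3-fold higher in fibre-like cells of LNP-CRISPR kit, as were 25.1% of all genes. The median log2 ratio was 1.82, against 0.12 for all genes. The 6 of them outside complex I summed to 3986 CPM in vehicle kit and 13248 CPM in LNP-CRISPR kit, a ratio of 3.32. The 3 barcodes named above held 9676 of the 13056 UMIs of these genes in LNP-CRISPR kit. Without the 3 barcodes with the most mt-Nd UMIs of each library the levels were 2672 and 3804 CPM and the ratio 1.424.

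mt-Nd3 and mt-Nd4l, neighbours on chromosome M, differed in opposite directions between the kit libraries in every pair except the fibre-like one. mt-Nd3 was lower in LNP-CRISPR kit, at 0.722 (0.690 to 0.756) in glial-like, 0.803 in myogenic-like, 0.7865 in pericyte/smooth muscle-like cells, 0.785 in cluster 7 and 0.778 in cluster 12. mt-Nd4l was higher, at 1.26 (1.205 to 1.32) in pericyte/smooth muscle-like cells, 1.15 in cluster 12, 1.13 in myogenic-like, 1.09 in glial-like cells and 1.08 in cluster 7. In bulk mt-Nd4l was lower in LNP-CRISPR, from 0.808 in tenocyte-like to 0.922 in FAP-like cells, and mt-Nd3 was 1.196 in FAP-like and 0.908 in macrophage-like cells.

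The count of mt-Nd4l per mt-Nd3 count was compared by library. Over classes with at least 100 mt-Nd3 UMIs it ran from 0.420 to 0.699 (median 0.481) in 9 classes or clusters of LNP-CRISPR kit. It ran from 0.310 to 0.401 (median 0.324) in 8 of vehicle kit, from 0.209 to 0.267 (median 0.238) in 9 of LNP-CRISPR bulk and from 0.192 to 0.339 (median 0.3055) in 7 of vehicle bulk. The LNP-CRISPR kit values did not overlap those of any other library. The counting interval of fibre-like cells in vehicle kit, 0.296 to 0.538, did reach into their range. Because each library is 1 preparation, treatment and library preparation cannot be told apart here.

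**Figure D5:**
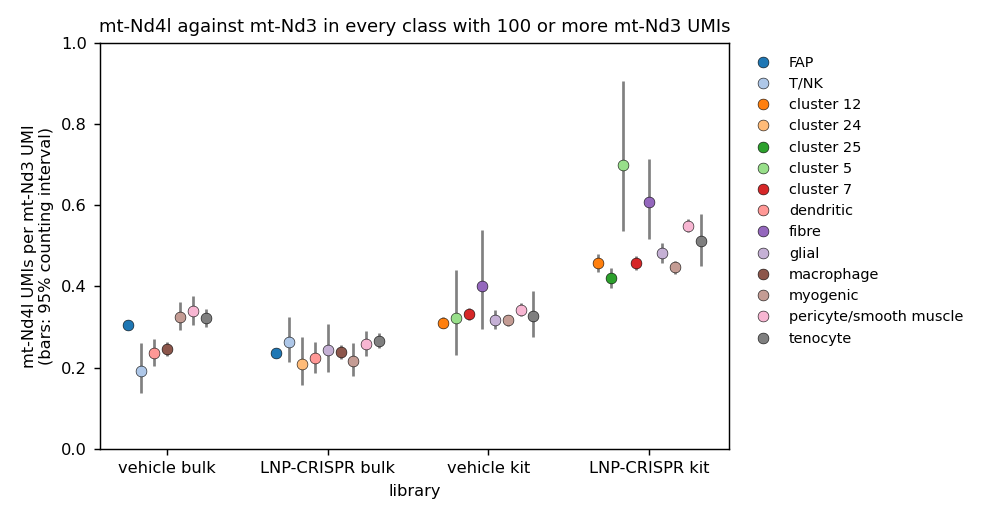
mt-Nd4l UMIs per mt-Nd3 UMI, by library, with 1 point per class or cluster that had at least 100 mt-Nd3 UMIs and bars for the 95% counting interval. All 9 points of LNP-CRISPR kit, from 0.420 to 0.699, lie above the 24 points of the other libraries, which reach 0.401.

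No class reached 50 cells in both isolations, so bulk and kit values are given side by side without a comparison. Pericyte/smooth muscle-like cells held 7354 and 7862 CPM of Nduf RNA in the 27 cells of each bulk library (vehicle and LNP-CRISPR), and 9509 and 9083 CPM in the kit libraries. Their mt-Nd UMIs per Nduf UMI were 3.92 and 3.275 in bulk and 2.52 and 2.50 in the kit libraries. Myogenic-like cells held 9847 and 7787 CPM of Nduf RNA in bulk, from 31 and 21 cells. Tenocyte-like cells held 4864, 4570, 4435 and 4643 CPM of Nduf RNA in vehicle bulk, LNP-CRISPR bulk and the vehicle and LNP-CRISPR kit libraries, the narrowest spread of these classes.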

How the data were processed

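Single-cell RNA libraries were made with the 10x 3′ v3.1 kit, per the labels' protocols. The authors deposited whole-number UMI counts, not normalized, for barcodes already called as cells. Cell Ranger is given as 5.0.1 per the file headers and as 7.0.1, with mm10, per the submitters' processing notes. The members and lists were chosen with earlier results of these data known.

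Of 6512 barcodes, filters on detected genes (200 or more) and on mitochondrial UMIs (20% or less), and removal of 23 doublets called by Scrublet (scanpy 1.11.5, expected rate 0.05), left 5651. The doublets called were under 0.5% of barcodes, so most doublets are taken to remain. Pairs of libraries shared 0 to 3 cell barcodes. Cells were scaled to 10000 UMIs, and 2000 variable genes without the 54 members, other mitochondrial genes and Cas9 gave 30 principal components, 15 neighbours and 27 Leiden clusters (leidenalg 0.10.2, resolution 1, seed 1); batches were not integrated. To be named after 1 of 16 marker classes, a cluster needed 3 or more of its markers, each present in 10% of cells or more and raised by a log2 fold of 1 or more. A rule added after the clusters were seen left a cluster unnamed when none of its 10 leading genes was a marker of its class and a second class was also enriched. It kept cluster 25 out of the fibre-like class, with 0%, 0.0870%, 1.21% and 1.69% of cells in vehicle bulk, LNP-CRISPR bulk and the vehicle and LNP-CRISPR kit libraries. Pooled over libraries, cluster 25 held 48232 Nduf and 62346 mt-Nd UMIs, against 60172 and 6124 in the fibre-like class. The low fibre-like balance therefore depends on this rule, and fibre-like values with cluster 25 included are not given here.

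CPM is a class's UMI sum per 1000000 of its nuclear-encoded UMIs. Levels needed 20 cells, comparisons 50 cells in both libraries, and single-gene ratios 100 UMIs in the pair. Levels carry exact Poisson intervals and ratios exact conditional binomial intervals, at 95%. The ratio step was run on simulated counts of whole bulk libraries with counting error only. That run cannot show how the ratios hold under variation between cells or libraries. Named genes were all mt-Nd genes, the 3 highest and 3 lowest Nduf ratios of each pair (of which the text gives those furthest from 1 or met in several pairs), the 5 Nduf genes with most UMIs, the 5 varying most between classes, Ndufa4, Ndufa4l2, and the 3 genes most like each sum. Nduf genes named within the myogenic-like and cycling clusters, and those named as highest in a class, were chosen after their values were seen. Gene positions were matched to GENCODE M21 for all 54 members. A single gene counts in the sums and is not reported here by itself.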

Additional observations from a re-analysis of the deposited data

Results flagged for a closer look

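The ratio of LNP-CRISPR to vehicle in summed mt-Nd RNA lay on opposite sides of 1 in classes of the same isolation, and this difference was not tested. In bulk it was 1.088 in FAP-like cells and 0.889 in macrophage-like cells, where cluster 6 was lower and cluster 16 higher in LNP-CRISPR bulk. In the kit libraries it was 3.569 in fibre-like cells, or 1.623 without the 3 highest barcodes of each library, and 0.860 in glial-like cells. Summed Nduf RNA likewise stood at 1.015 in myogenic-like cells and 0.941 in glial-like cells of the kit libraries.

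Barcodes left out for more than 20% mitochondrial UMIs were chosen for their mitochondrial share, which by itself sets their mt-Nd level above that of the kept cells, so the values are a description. They held 56.6 mt-Nd UMIs per Nduf UMI in vehicle bulk (77 barcodes), 68.0 in LNP-CRISPR bulk (122), 20.5 in vehicle kit (256) and 21.9 in LNP-CRISPR kit (299). Kept cells of the same libraries held 1.70, 1.86, 1.22 and 1.33. Nduf RNA in these barcodes was lower than in the kept cells, at 2212, 2029, 5794 and 4948 CPM against 5220, 5015, 10860 and 9889 CPM.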

How the results depend on the processing

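No paired analysis was possible because each group held 1 library. Summed Nduf ratios of the 10 pairs stayed between 0.829 and 1.038 in all settings run, and the values that left their counting interval are given here. With Leiden resolution 2, the mt-Nd ratio was 0.968 in dendritic-like cells. With all UMIs as the denominator, the Nduf ratio was 1.027 in myogenic-like cells, and the mt-Nd ratio was 0.908 in myogenic-like cells and 0.955 in pericyte/smooth muscle-like cells. With all genes used for clustering, the Nduf ratio was 1.034 in myogenic-like cells and 0.982 in pericyte/smooth muscle-like cells, and the mt-Nd ratio was 1.563 in fibre-like cells, 0.911 in myogenic-like cells and 0.932 in pericyte/smooth muscle-like cells. With at most 10% mitochondrial UMIs, the Nduf ratio was 0.923 in cluster 7, 1.004 in fibre-like cells and 0.924 in pericyte/smooth muscle-like cells, and the mt-Nd ratio was 1.079 in FAP-like cells, 0.928 in macrophage-like cells, 0.860 in cluster 7, 1.375 in fibre-like cells, 0.931 in myogenic-like cells and 1.051 in pericyte/smooth muscle-like cells. With called doublets kept, the Nduf ratio was 1.038 in dendritic-like cells, and the mt-Nd ratio was 0.987 in dendritic-like cells. Centred on the median of all genes, the Nduf ratio was 0.998 in FAP-like cells, 0.898 in cluster 7, 0.886 in fibre-like cells and 0.992 in pericyte/smooth muscle-like cells, and the mt-Nd ratio was 1.124 in FAP-like cells, 0.903 in macrophage-like cells, 0.895 in cluster 7, 3.284 in fibre-like cells and 0.981 in pericyte/smooth muscle-like cells. Nduf genes higher then numbered 0 in fibre-like cells, and Nduf genes lower numbered 0 in macrophage-like cells, 2 in fibre-like cells and 1 in glial-like cells. With each cell named by its marker score, the Nduf ratio was 1.001 in macrophage-like cells, 0.879 in fibre-like cells, 0.910 in glial-like cells and 0.983 in myogenic-like cells, and the mt-Nd ratio was 1.075 in FAP-like cells, 0.847 in dendritic-like cells, 0.972 in tenocyte-like cells, 1.78 in fibre-like cells, 0.818 in glial-like cells and 0.928 in myogenic-like cells. With each cell weighted equally, the Nduf ratio was 0.934 in FAP-like cells, 0.897 in dendritic-like cells, 0.973 in cluster 12, 0.829 in cluster 7, 0.932 in fibre-like cells, 0.984 in myogenic-like cells and 0.981 in pericyte/smooth muscle-like cells, and the mt-Nd ratio was 1.049 in dendritic-like cells, 0.865 in macrophage-like cells, 0.896 in tenocyte-like cells, 0.925 in cluster 12, 1.287 in cluster 7, 1.063 in fibre-like cells, 0.913 in glial-like cells and myogenic-like cells and 0.988 in pericyte/smooth muscle-like cells. Without the mitochondrial limit, cells were clustered and named anew, and the myogenic-like class was a different set of cells. The Nduf ratio was then 0.993 in myogenic-like cells and 0.983 in pericyte/smooth muscle-like cells. The mt-Nd ratio was 1.097 in FAP-like cells, 0.923 in macrophage-like cells, 0.919 in tenocyte-like cells, 1.745 in fibre-like cells, 0.884 in myogenic-like cells and 0.828 in pericyte/smooth muscle-like cells. Without the highest cell of each library, the mt-Nd ratio was 0.920 in cluster 7, 3.202 in fibre-like cells and 0.936 in pericyte/smooth muscle-like cells. With at least 20 UMIs, Nduf genes higher numbered 5 in dendritic-like cells, 1 in macrophage-like cells and cluster 7 and 3 in tenocyte-like cells, and Nduf genes lower numbered 2 in macrophage-like cells and fibre-like cells and 1 in glial-like cells and pericyte/smooth muscle-like cells. With a fold of 1.5, Nduf genes higher numbered 0 in dendritic-like cells, tenocyte-like cells, fibre-like cells and myogenic-like cells and 1 in glial-like cells, and Nduf genes lower numbered 0 in FAP-like cells, dendritic-like cells, macrophage-like cells, tenocyte-like cells, cluster 7 and fibre-like cells. With no minimum beyond 1 UMI, Nduf genes higher numbered 6 in dendritic-like cells, 1 in macrophage-like cells, cluster 12 and cluster 7, 3 in tenocyte-like cells and 2 in fibre-like cells and myogenic-like cells, and Nduf genes lower numbered 4 in dendritic-like cells, 3 in macrophage-like cells, 2 in fibre-like cells and 1 in glial-like cells and pericyte/smooth muscle-like cells. Chosen after the data were seen, leaving out the 3 highest barcodes gave an mt-Nd ratio of 1.623 in fibre-like cells (1.424 for other mitochondrial mRNAs), and at most 5% mitochondrial UMIs gave 1.502. Without the mitochondrial limit, mt-Nd UMIs per Nduf UMI in neutrophil-like cells of LNP-CRISPR bulk were 2.617 against 0.628. The cause of these shifts was not tested. Members with fewer than 100 UMIs in a pair, mostly assembly factors, could not be placed against the fold, and 1 library per group limits every comparison.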

Other observations

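Genes that transcribe mitochondrial DNA and stabilise its RNA, such as Tfam, Polrmt and Lrpprc, were ordered differently from the mt-Nd genes. Their 14 members summed to 717 CPM in cluster 12, 684 CPM in cluster 7, 620 CPM in cluster 25 and 580 CPM in myogenic-like cells. In pericyte/smooth muscle-like cells, highest in mt-Nd RNA, they summed to 273 CPM, and in fibre-like cells, which were low in mt-Nd RNA, to 403 CPM. Complex I assembly genes without the Nduf name, such as Acad9 and Ecsit, were highest in cluster 25 at 312 CPM, followed by cluster 12 at 284 CPM, cluster 7 at 260 CPM and fibre-like cells at 250 CPM (10 genes in the files). The counting intervals of cluster 7 and fibre-like cells overlapped. Complex II, which has no mitochondrially encoded part, was highest in fibre-like cells at 938 CPM, with 866 CPM in cluster 25, 555 CPM in myogenic-like and 142 CPM in neutrophil-like cells.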
